A study of Equus caballus with 14 samples.

Results

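The results concern 4 of the 26740 genes counted in endometrium and embryos of the mare, namely ENSECAG00000015643, ENSECAG00000022912, ENSECAG00000015857 and ENSECAG00000023194. They were picked because their levels were over 30-fold higher in embryos than in pregnant endometrium with little spread, while several CPM (counts per 1000000 counts) were still found in the endometrium. The embryo and pregnant endometrium values therefore chose the genes, and the contrast between those groups is described here without a test. ENSECAG00000022912 is annotated by the study as the U-type creatine kinase of mitochondria, which RefSeq lists for the horse as CKMT1B. The other 3 genes are given by identifier.

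Sampling took place on day 13 after ovulation. Cyclic endometrium (n = 4) came from unbred cycles and pregnant endometrium (n = 5) from cycles in which the same mares had been inseminated, and the embryos (n = 5) were flushed from those pregnancies. According to the methods of the study the mares were Warmbloods, hCG induced ovulation in both kinds of cycle and a single stallion sired all embryos. The cyclic sample of mare 5 was left out of sequencing by the study because of low RNA quality. The endometrium was sampled as a whole biopsy, in pregnant cycles once the embryo had been flushed out, and the embryonic tissue was stored after removal of the capsule and the yolk sac fluid, so both are mixtures of cell types. In such bulk samples, fewer cells of a type and less RNA per cell cannot be told apart. The tissue labels were not checked against marker genes, since names of marker genes were not looked up.

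At this age the equine embryo is a spherical conceptus that moves through the uterus inside its capsule, and its tissue consists largely of trophoblast and of the wall of the yolk sac. This is the period of maternal recognition of pregnancy, in which the mare's corpus luteum is maintained. Mitochondrial creatine kinase transfers phosphate from newly made ATP to creatine in the intermembrane space, and phosphocreatine then carries it to sites of energy use in the cytosol. The U-type (ubiquitous) form is the one found in tissues other than striated muscle.

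The endometrium libraries held from 21.8 to 46.9 M counts (M, 1000000). Among the embryos, library 4 was the deepest with 240 M counts, and the others had from 23.5 to 50.8 M. Embryo 1 stood apart, as its 10 most counted genes took 91.7% of its counts, against 17.5 to 33.9% in the other embryos, and none of the 4 genes was among those 10. Levels are given in CPM scaled by TMM factors (trimmed mean of M values, a scaling by the bulk of the genes) over all 14 libraries. The factor was 0.0340 for embryo 1, 0.690 to 0.927 for the other embryos and 1.43 to 1.71 for endometrium. Scaled levels of embryo 1 are thus far above its unscaled CPM, and the ratios, spreads and correlations between the 4 genes that include it are also given without it or without scaling.

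All 4 genes were counted in every library, and the lowest count was 61. The 3 groups are first described gene by gene.

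ENSECAG00000015643 was, of the 4 genes, the one with the widest distance between embryo and endometrium. Cyclic samples 1 to 4 had 381, 261, 325 and 593 counts, or 6.01, 8.43, 4.90 and 7.44 scaled CPM. Pregnant samples 1 to 5 had 581, 514, 952, 442 and 591 counts, or 9.43, 7.998, 12.9, 7.31 and 9.80 scaled CPM. Embryos 1 to 5 had 8546, 171125, 663720, 3193635 and 184122 counts, or 5644, 10578, 14140, 14783 and 9572 scaled CPM. Every embryo lay above every endometrium sample, and the lowest embryo, embryo 1, was 439-fold above the highest endometrium sample (744-fold without embryo 1, and 9.33-fold on unscaled CPM). The mean was 10944 ± 3710 CPM in embryos (SD, n = 5) and 9.48 ± 2.15 CPM in pregnant endometrium (SD, n = 5), a ratio of 1154. The ratio to cyclic endometrium, with 6.70 ± 1.56 CPM (SD, n = 4), was 1634. By count, without regard to gene length, this gene ranked 7th in embryos 3 and 4, 13th in embryos 2 and 5 and 19th in embryo 1, and its unscaled level in embryo 4 was 13318 CPM (95% Wilson interval 13304 to 13333, counting error only).

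Of the 4 genes, CKMT1B had the highest level in pregnant endometrium relative to its level in embryos. Cyclic samples 1 to 4 had 728, 61, 456 and 520 counts, or 11.5, 1.97, 6.88 and 6.53 scaled CPM. Pregnant samples 1 to 5 had 1695, 1571, 1470, 1321 and 1269 counts, or 27.5, 24.4, 19.9, 21.8 and 21.0 scaled CPM. Embryos 1 to 5 had 911, 19693, 51049, 208527 and 19716 counts, or 602, 1217, 1088, 965 and 1025 scaled CPM. On this scale the 3 groups formed steps that did not overlap, with cyclic endometrium lowest and embryos highest, whereas on unscaled CPM embryo 1 fell below all pregnant samples. Embryos had 979 ± 231 CPM (SD, n = 5), which was 42.7-fold the level of pregnant endometrium (22.9 ± 3.06 CPM, SD, n = 5) and 146-fold that of cyclic endometrium (6.71 ± 3.88 CPM, SD, n = 4). The spread among cyclic samples was wide, since sample 2 was 5.82-fold lower than sample 1. Its 61 counts corresponded to 2.804 unscaled CPM (95% Wilson interval 2.18 to 3.60, counting error only).

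ENSECAG00000015857 was at a few CPM in both kinds of endometrium. Cyclic samples 1 to 4 had 247, 103, 330 and 442 counts, or 3.89, 3.33, 4.98 and 5.55 scaled CPM. Pregnant samples 1 to 5 had 385, 166, 344, 181 and 199 counts, or 6.25, 2.58, 4.65, 2.99 and 3.30 scaled CPM. Embryos 1 to 5 had 562, 13658, 33165, 164206 and 10043 counts, or 371, 844, 707, 760 and 522 scaled CPM. The cyclic and pregnant samples overlapped over most of their range, and the lowest embryo, embryo 1, was 59.4-fold above the highest endometrium sample (83.5-fold without embryo 1, and 1.296-fold on unscaled CPM). The mean of 641 ± 192 CPM in embryos (SD, n = 5) was 162-fold that of pregnant endometrium (3.95 ± 1.499 CPM, SD, n = 5) and 144-fold that of cyclic endometrium (4.44 ± 1.01 CPM, SD, n = 4).

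ENSECAG00000023194 gave a like picture in endometrium and, unlike the other genes, was not lowest in embryo 1 among the embryos on scaled levels. Cyclic samples 1 to 4 had 337, 164, 496 and 292 counts, or 5.31, 5.30, 7.48 and 3.66 scaled CPM. Pregnant samples 1 to 5 had 318, 295, 406, 235 and 452 counts, or 5.16, 4.59, 5.48, 3.89 and 7.496 scaled CPM. Embryos 1 to 5 had 1473, 9646, 31337, 218046 and 11922 counts, or 973, 596, 668, 1009 and 620 scaled CPM. The endometrium groups overlapped almost completely, and embryo 1 lay within the range of the other embryos, next to embryo 4 at its upper end. The mean of 773 ± 201 CPM in embryos (SD, n = 5) was 145-fold that of pregnant endometrium (5.32 ± 1.36 CPM, SD, n = 5) and 142-fold that of cyclic endometrium (5.44 ± 1.57 CPM, SD, n = 4).

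**Figure D1:**
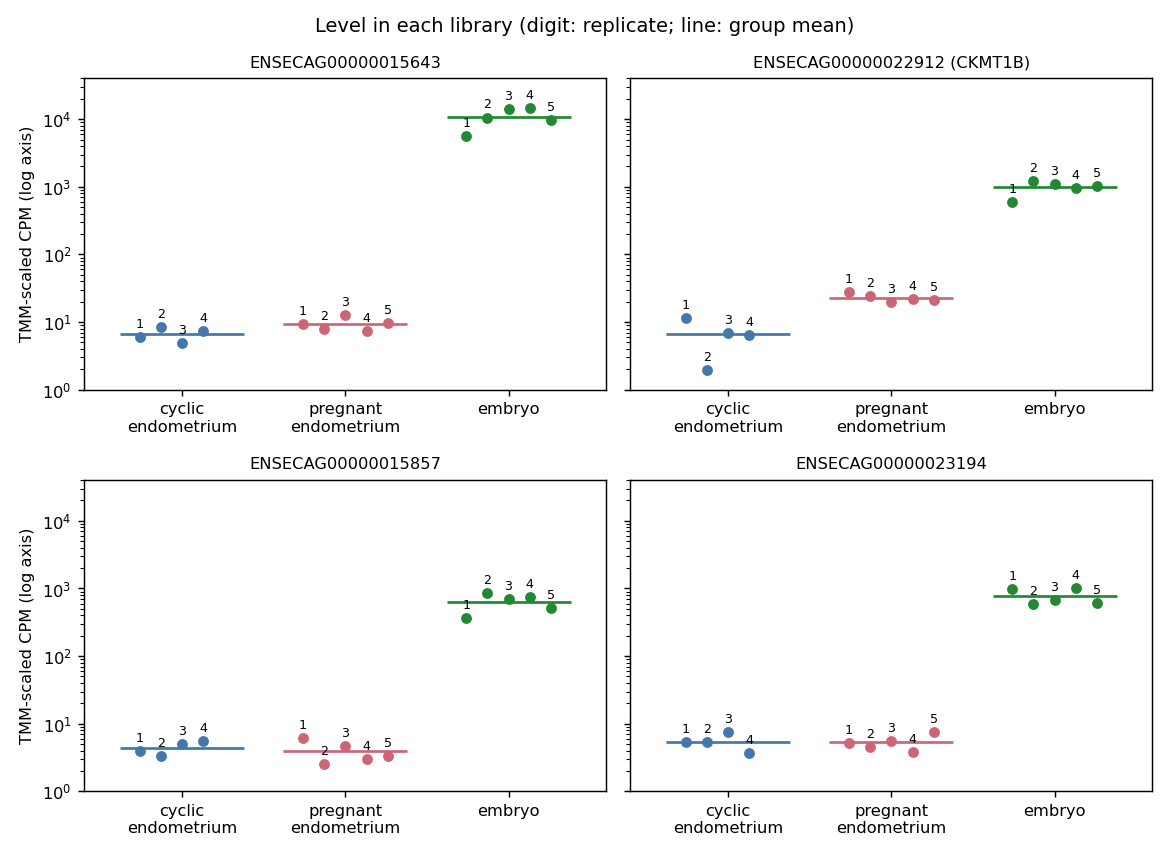
Level of each of the 4 genes in all 14 libraries, as TMM-scaled CPM on a log axis. Points are libraries with their replicate number and lines are group means, and on this scale all 5 embryos lie above all 9 endometrium samples in each panel, by at least 21.9-fold for CKMT1B and 439-fold for ENSECAG00000015643, while on unscaled CPM embryo 1 is below the pregnant samples for CKMT1B.

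On TMM-scaled levels all 4 genes thus had every embryo above every pregnant sample. Such a pattern held for 17.7% of the 11244 genes tested between embryo and pregnant endometrium, and 27.1% were called higher in the embryo, but the genes had been chosen on this contrast and nothing is read from it. Between embryos and pregnant samples of the same number the ratio ranged from 598 to 2023 for ENSECAG00000015643, from 21.9 to 54.8 for CKMT1B, from 59.4 to 327 for ENSECAG00000015857 and from 82.7 to 260 for ENSECAG00000023194. Without embryo 1 the lowest of these ratios was 977, 44.2, 152 and 82.7, and on unscaled CPM embryo 1 gave the lowest ratio for each gene, with 13.1, 0.477, 1.296 and 4.11. Without embryo 1 the ratios of the group means were 1294, 46.8, 179 and 136 for the 4 genes in that order. Without scaling factors the ratios of the group means were 542, 19.1, 73.7 and 57.1 in the same order, so CKMT1B passed the 30-fold limit on the scaled levels alone. With a mean of at least 3 scaled CPM in pregnant endometrium, a limit set with the data seen, there were 11485 genes, of which 57 were over 30-fold higher in embryos. Among these 57, ENSECAG00000015643 had the third largest ratio and CKMT1B the 41st. CKMT1B lay nearest to the limit of the 4 genes, and the gene just outside it, ENSECAG00000007348, had a ratio of 29.3, with 92.1 CPM in embryos and 3.14 CPM in pregnant endometrium. Little spread was part of the choice, and the coefficient of variation among embryos was 33.9, 23.6, 29.9 and 26.0% for the 4 genes in the order above. It was 21.0, 10.1, 19.3 and 26.7% without embryo 1, and 65.7, 55.7, 59.8 and 65.7% on unscaled CPM with it. On scaled levels of all embryos the 4 genes had the 19th, 5th, 16th and 9th lowest value of the 57. Of the 57, 13 genes, the 4 included, had coefficients in embryos and in pregnant samples no higher than the highest among the 4. The limits on spread were taken from the 4 genes, so their likeness to the rest of these 13 was fixed by the definition and nothing is read from it.

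To describe whether these genes differed with pregnancy on the maternal side, the pregnant and the cyclic sample of each mare were compared. CKMT1B was higher in pregnancy, and no difference was detected for the other 3 genes. Of the 4 genes, 1 was called higher and 0 lower, where 1.79% of the 11892 genes tested were called, 1.14% higher and 0.647% lower. Calls rest on edgeR's likelihood ratio test, at a Benjamini-Hochberg adjusted p below 0.05 and over 2-fold. The pregnant samples had also served to choose the genes, whereas the cyclic samples did not enter the ratio used for the choice. Whether they counted towards the level required in endometrium is not stated.

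The level of CKMT1B was 2.40, 12.4, 2.89 and 3.35-fold higher in pregnancy in mares 1 to 4. A rise in all 4 mares was found for 12.4% of the genes tested. The lowest pregnant sample (19.9 CPM) was above the highest cyclic sample (11.5 CPM), and 4.12% of the genes tested had groups that did not overlap. The fitted log2 change was 1.98 (SE 0.40), or 3.95-fold with a 95% interval from 2.28 to 6.83 (edgeR likelihood ratio test, adjusted p = 0.000518). It was the 59th largest change upwards of the 11892. The call was lost with the quasi-likelihood test of edgeR (log2 change 1.96, adjusted p = 0.244), which called 1 gene in all, and in a test against a 2-fold change (adjusted p = 0.478). Without mare 2 the log2 change was smaller, 1.51, and the call was kept (edgeR likelihood ratio test, adjusted p = 1.14e-07).

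The level of CKMT1B in pregnant endometrium was 2.14% of that in embryos 2 to 5 and exceeded that of cyclic endometrium by 1.51% of it. For the other 3 genes the level in cyclic endometrium, with no embryo present, was 0.0546, 0.626 and 0.752% of that in embryos 2 to 5. The pregnant minus the cyclic level of these 3 genes was 0.0227, -0.0681 and -0.0160% of that in embryos 2 to 5. The part of embryonic RNA in the levels of pregnant endometrium was not tested.

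ENSECAG00000015643 was higher in pregnancy in mares 1 and 3 (1.57 and 2.62-fold) and close to its cyclic level in mares 2 and 4 (0.948 and 0.982-fold). Its fitted change was 1.38-fold with a 95% interval from 0.902 to 2.12, and the adjusted p of the edgeR likelihood ratio test was 0.696. ENSECAG00000015857 was lower in 3 of 4 mares, with 1.61, 0.776, 0.933 and 0.540-fold the cyclic level in mares 1 to 4. Its fitted change was 0.882-fold (95% interval 0.570 to 1.36, adjusted p = 0.937 by edgeR). ENSECAG00000023194 had 0.972, 0.866, 0.733 and 1.06-fold the cyclic level in mares 1 to 4, and a fitted change of 0.890-fold (95% interval 0.643 to 1.23, adjusted p = 0.913 by edgeR). The intervals of ENSECAG00000015857 and ENSECAG00000023194 lay within a rise and a fall of 2-fold, and that of ENSECAG00000015643 leaves room for a rise of up to 2.12-fold. These intervals use normal quantiles and take the fitted dispersion as known, with 4 mares in pairs, so they may be too narrow. The median log2 change of the 4 genes was 0.15, against 0.00 over all genes tested, and over the 57 genes named above, of which 3 were called higher and 1 lower, it was -0.03.

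**Figure D2:**
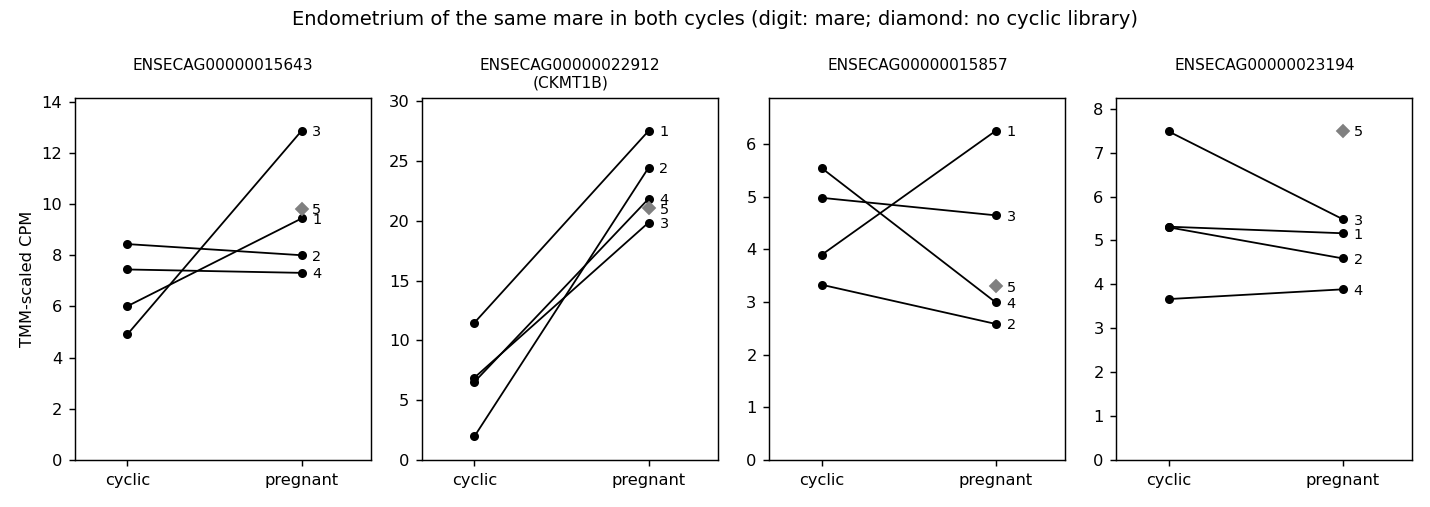
TMM-scaled CPM (linear axes from 0) of the 4 genes in endometrium of the same mare in the cyclic and the pregnant cycle, joined by lines, with pregnant sample 5, which has no cyclic library, as a diamond. All 4 lines rise for CKMT1B, by 2.40 to 12.4-fold, while the lines of the other genes go both ways.

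**Figure D3:**
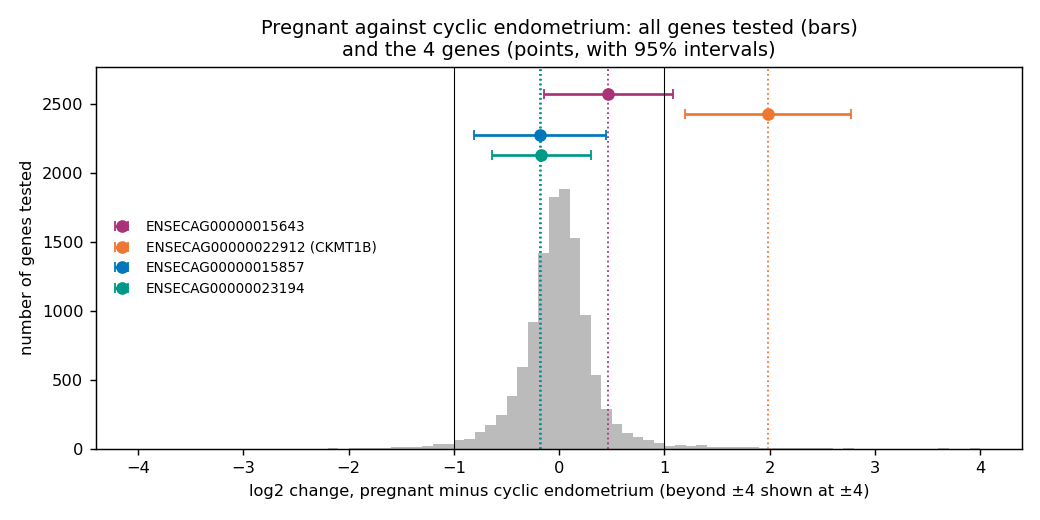
Distribution of the log2 change between pregnant and cyclic endometrium over the 11892 genes tested (bars, number of genes), with the 4 genes as points and their 95% intervals. Vertical lines at -1 and 1 mark a 2-fold change, and the interval of CKMT1B, from 1.19 to 2.77, is the only one of the 4 that lies wholly beyond 1.

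The levels of the 4 genes were then compared between embryo 1 and the other embryos. There is 1 library on one side, so no test was made, and an exact permutation test of 1 against 4 samples could not give a p below 0.2. On TMM-scaled levels, embryo 1 had 0.460-fold the mean of embryos 2 to 5 for ENSECAG00000015643, 0.560-fold for CKMT1B and 0.524-fold for ENSECAG00000015857, below all 4 other embryos in each case. For ENSECAG00000023194 the ratio was 1.35 and embryo 1 was within the range of the others. On unscaled CPM embryo 1 was far lower for all 4 genes, with 192, 20.4, 12.6 and 33.1 CPM against lowest values of 7120, 762, 388 and 410 CPM in the other embryos. Its unscaled CKMT1B level was thus below that of every pregnant endometrium sample (31.7 to 42.8 CPM). With the size factors of DESeq2 the ratios were 1.06, 1.29, 1.21 and 3.12, and with upper quartile factors 0.458, 0.556, 0.521 and 1.34. The direction between embryo 1 and the others thus depended on the scaling for all 4 genes. Of the scalings used, only the DESeq2 size factors gave a ratio over 1 for ENSECAG00000015643, CKMT1B and ENSECAG00000015857.

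Since high levels and little spread in all embryos, embryo 1 included, had chosen the genes, their place among other genes in embryo 1 was fixed in part by the choice and nothing is read from it. Over 11852 genes the median log2 ratio of embryo 1 to the mean of the others was -3.66 on TMM-scaled levels, and 3349 of these genes had 0 counts in embryo 1. The log2 ratios of the 4 genes were -1.12, -0.84, -0.93 and 0.43.

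**Figure D4:**
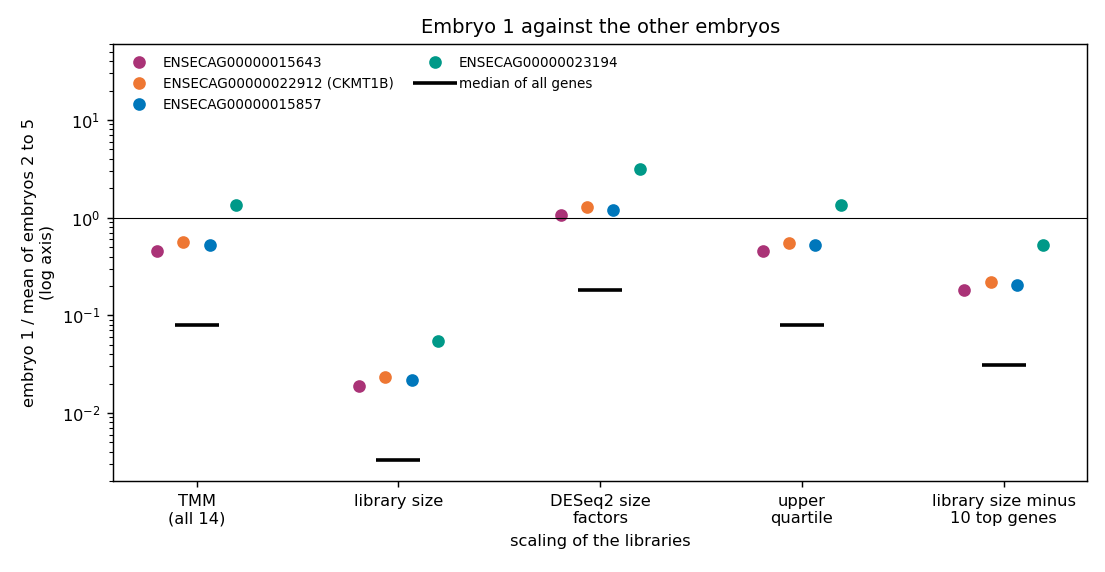
Level in embryo 1 divided by the mean of embryos 2 to 5 (log axis) for the 4 genes under 5 scalings, with the median over 11852 genes as a bar. The distances between the genes stay alike while the scaling moves them together, from 0.0188 to 0.0551 with library size to 1.06 to 3.12 with DESeq2 size factors, and ENSECAG00000023194 is the highest of the 4 each time.

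Count ratios between 2 genes of the same library do not depend on the scaling. In embryo 1 the 3 ratios among ENSECAG00000015643, CKMT1B and ENSECAG00000015857 lay within the range of embryos 2 to 5. ENSECAG00000015643 had 9.38 times the counts of CKMT1B (8.69 to 15.3 in the other embryos) and 15.2 times those of ENSECAG00000015857 (12.5 to 20.0). CKMT1B had 1.62 times the counts of ENSECAG00000015857 (1.27 to 1.96). All 3 ratios to ENSECAG00000023194 were below the range of the other embryos, with 5.80 (14.6 to 21.2) for ENSECAG00000015643, 0.618 (0.956 to 2.04) for CKMT1B and 0.382 (0.753 to 1.42) for ENSECAG00000015857. In embryo 1 ENSECAG00000023194 took 12.8% of the counts of the 4 genes, against 4.02 to 5.76% in embryos 2 to 5. These 3 ratios share 1 gene and embryo 1 is 1 library. How often other gene pairs place embryo 1 outside the range was not computed, so nothing is read from them. Among the 57 genes named above, ENSECAG00000023194 had the 24th largest ratio of embryo 1 to embryos 2 to 5. ENSECAG00000015643, CKMT1B and ENSECAG00000015857 had the 42nd, 37th and 39th.

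The share of ENSECAG00000015643 and that of CKMT1B did not overlap between endometrium and embryos, whereas 3 of the 6 count ratios overlapped between cyclic endometrium and embryos. ENSECAG00000015643 took 74.4 to 85.2% of the counts of the 4 genes in embryos, 20.2 to 44.3% in cyclic and 19.5 to 30.01% in pregnant endometrium. CKMT1B took 5.51 to 9.20% in embryos, 10.4 to 43.0% in cyclic and 46.3 to 61.7% in pregnant endometrium. The ratio of CKMT1B to ENSECAG00000015857 was 4.27 to 9.46 in pregnant endometrium, above the 0.592 to 2.95 of cyclic endometrium and the 1.27 to 1.96 of embryos, which overlapped with each other, and its ratio to ENSECAG00000023194 was 2.81 to 5.62, above 0.372 to 2.16 and 0.618 to 2.04, which overlapped as well. For these ratios the pregnant samples overlapped with neither of the other groups. The ratio of ENSECAG00000015857 to ENSECAG00000023194 overlapped between cyclic samples (0.628 to 1.51), pregnant samples (0.440 to 1.21) and embryos (0.382 to 1.42). These shares and ratios restate the levels given above, and the embryo and pregnant values had chosen the genes. How often other gene pairs separate the groups was not computed, so nothing further is read from the shares and ratios.

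**Figure D5:**
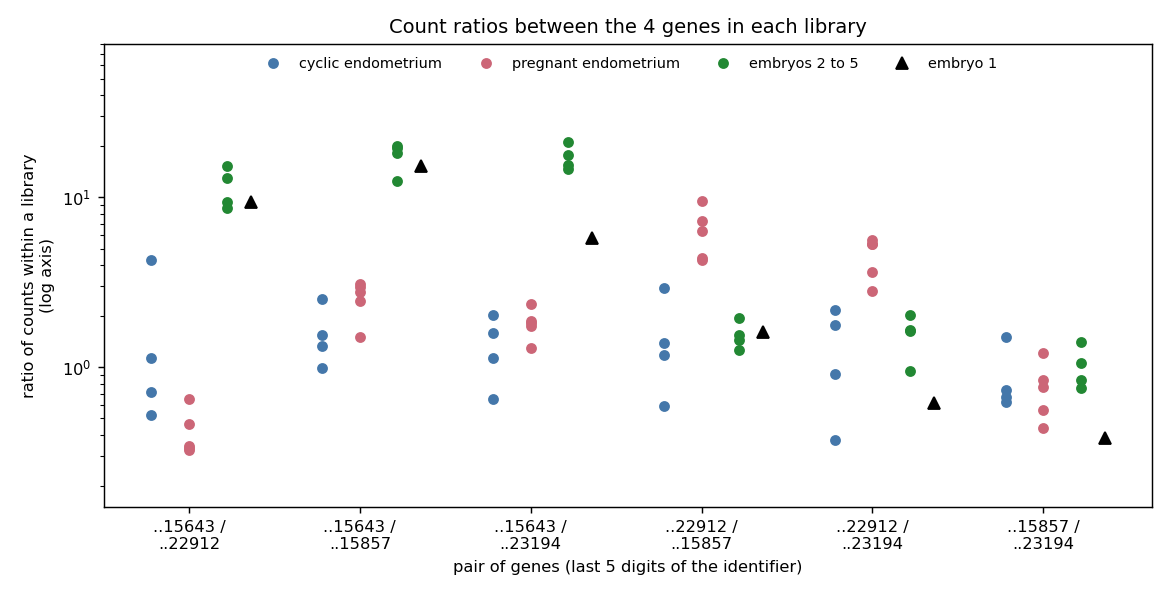
Ratio of counts within each library for the 6 pairs of the 4 genes (log axis), with points for libraries and a triangle for embryo 1. Embryo 1 falls among embryos 2 to 5 for the 3 pairs without ENSECAG00000023194 and below them for the 3 pairs with it, for example 5.80 against 14.6 to 21.2.

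Over all 14 samples the log2 levels of the 4 genes correlated with each other with Pearson's r between 0.94 and 0.99, with embryo 1 as without it, which describes the distance between embryos and endometrium that the choice of genes fixed. Within the 9 endometrium samples r was 0.34 between ENSECAG00000015643 and CKMT1B and between -0.06 and 0.06 for the other 5 pairs, so no common variation was seen in those 5 pairs. Without cyclic sample 2 these values were 0.66 and -0.41 to 0.06. For each gene the most alike of 11947 other genes was sought. Over all 14 samples these were ENSECAG00000017103 for ENSECAG00000015643, ENSECAG00000015175 for CKMT1B, ENSECAG00000015990 for ENSECAG00000015857 and ENSECAG00000013880 for ENSECAG00000023194, with r of 0.997, 0.980, 0.996 and 0.996. Such likeness was common, since 703, 159, 642 and 689 genes had r over 0.95 with the 4 genes. CKMT1B had the fewest.

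Within endometrium, the most alike gene of CKMT1B was ENSECAG00000019285, annotated as SFXN3 (sideroflexin 3, a carrier of the inner mitochondrial membrane), with r = 0.981 and Spearman's rho = 0.95 over the 9 samples. Its level was 6.10 ± 2.82 CPM in cyclic (SD, n = 4), 12.8 ± 2.03 CPM in pregnant endometrium (SD, n = 5) and 4.16 ± 2.88 CPM in embryos (SD, n = 5). The likeness was therefore limited to endometrium, and SFXN3 was not high in embryos. It was also not particular to SFXN3, since 7 genes had r over 0.95 with CKMT1B in endometrium and 60 had r over 0.9. The 9 samples pool cyclic and pregnant endometrium. Both genes had a higher mean in pregnant samples, so r includes that difference between the groups. The most alike genes of the other 3, in the order above, were ENSECAG00000010297, ENSECAG00000008129 and ENSECAG00000010321 with r of 0.915, 0.943 and 0.910. These correlations are descriptions over 9 samples that include pairs from the same mare, and each is the highest of 11947.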

How the data were processed

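Libraries were made by the authors with a directional kit and sequenced as single reads, which were trimmed with cutadapt 1.11, mapped to EquCab and counted per Ensembl gene in CLC Genomics Workbench. The authors deposited raw counts, without normalisation or filter. Use of strand and of reads mapping to several genes is not given in the sources used here, so overlapping genes and near-identical copies are uncertain.

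The 4 genes and the gene lists were chosen with earlier results of these data known. The names CKMT1B and SFXN3 were taken from the annotation columns of the study's gene tables and looked up in RefSeq, whose gene table held 0 equine Ensembl identifiers. The preset lists of tissue markers and creatine genes were not tested. Names were looked up only for the genes named here, and no sequence or position is given.

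Levels are CPM with TMM factors of edgeR 4.0.16 (R 4.3.3) over all 14 libraries, computed on 11948 genes with over 4 CPM in at least 4 libraries, which all 4 genes passed. Pregnant and cyclic samples were compared as the study's methods state, with the same filter on the 9 libraries, a negative binomial model with the mare as block, the likelihood ratio test and Benjamini-Hochberg adjustment over 11892 genes. Factors were recomputed after the filter, a step not stated by the study. Pregnant sample 5, without cyclic partner, informed filter and scaling alone. The mare is the replicate number of the labels, the study describing each mare as its own control, and deviations of same-numbered samples correlated with 0.108, 0.0839, 0.536 and 0.558. Standard errors and 95% intervals came from the same fit. The named genes were the 4 genes, for each the gene with the highest Pearson's r of log2 CPM (prior count 2) over 14 and over 9 samples, and the gene next to the 30-fold limit. The 91 pairs of libraries differed by a chi-square of at least 60.6 per degree of freedom, so none was a repeat. Alternatives were the quasi-likelihood test, DESeq2 1.42.0, other factors and filters, and omission of replicates.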

Additional observations from a re-analysis of the deposited data

Results flagged for a closer look

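The levels of the 4 genes in the 3 groups (12 sets of 4 or 5 values) were searched for a sample far from the others by the ratio of its gap to the range, and 0 of 12 sets held one. With so few values per set, such a search can miss a deviating sample. On unscaled CPM embryo 1 was far below the other embryos for all 4 genes, as described above.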

How the results depend on the processing

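For pregnant against cyclic endometrium, ENSECAG00000015643 and ENSECAG00000023194 kept their direction and stayed uncalled in 16 of 16 alternatives. CKMT1B kept its direction in all 16 and its call in 13. It was lost with the quasi-likelihood test (log2 change 1.96 with the replicate block, adjusted p = 0.244, and 1.75 with no replicate block, adjusted p = 0.127) and in the edgeR test against a 2-fold change (1.98, adjusted p = 0.478). Over the 16, its adjusted p lay between 1.14e-07 and 0.478. Omission of a replicate gave log2 changes from 1.51 to 2.26 for CKMT1B, from 0.17 to 0.67 for ENSECAG00000015643, from -0.45 to 0.0557 for ENSECAG00000015857, which turned upwards without mare 4, and from -0.25 to -0.07 for ENSECAG00000023194. No other call changed without the replicate block. Over all genes 213 were called, against 1 (quasi-likelihood, 1354 at an unadjusted p under 0.05), 19 (quasi-likelihood, no replicate block), 29 (against 2-fold), 45 (joint fit of 14 samples), 133 without mare 3 and 455 without mare 1. The cause was not tested.

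In the order ENSECAG00000015643, CKMT1B, ENSECAG00000015857 and ENSECAG00000023194, library size without factors gave ratios of embryo to pregnant endometrium of 542, 19.1, 73.7 and 57.1 and of embryo to cyclic endometrium, added after the data were seen, of 777, 64.1, 65.6 and 56.99. Omission of a replicate gave embryo to pregnant ratios of 1053 to 1294, 40.1 to 46.8, 149 to 190 and 134 to 162, and embryo to cyclic ratios of 1491 to 1832, 118 to 191, 133 to 160 and 128 to 162. The ratio of embryo 1 to embryos 2 to 5 was 0.0188, 0.0235, 0.0219 and 0.0551 with library size, 1.06, 1.29, 1.21 and 3.12 with DESeq2 size factors, and 0.180, 0.220, 0.206 and 0.527 when the 10 most counted genes of embryo 1 were removed from the library sizes. Omission of an embryo gave 0.429 to 0.494, 0.542 to 0.586, 0.482 to 0.560 and 1.27 to 1.55. Scaled levels are coarsest in embryo 1, where 1 count was worth 0.660 scaled CPM, against 0.0125 to 0.0323 in endometrium. Its library held 44.6 M counts, so this came from its TMM factor of 0.0340 and not from a low total.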
